A study of Arabidopsis thaliana with 12 samples.

Results

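The transcript response of wild-type Arabidopsis thaliana seedlings to chitooctaose was read from 3 arrays of treated seedlings and 3 arrays of seedlings given water, chosen by their labels and making up 6 of the 12 arrays of the series. The groups used were wild type given chitooctaose at 1 µM, wild type given water, and erf5/6 double mutant seedlings given the same treatments. ERF5 and ERF6 encode ethylene response factors. Mutant values are set beside the wild-type values in 1 paragraph, but all 12 arrays entered the fit that gave the standard errors and p-values. All seedlings were whole, 14 days old, grown in liquid medium under constant light and harvested 30 min after treatment. The labels name 3 biological replicates a group without saying whether they were separate cultures, so the p-values measure the spread between these samples. In whole seedlings, fewer responding cells and less RNA per cell cannot be told apart.

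Chitooctaose is an oligomer of N-acetylglucosamine, the building block of the chitin in fungal cell walls. Plants bind such fragments at the cell surface through receptor kinases with lysin motifs. Binding is known to be followed within minutes by calcium entry, an oxidative burst and mitogen-activated protein kinase activity, and then by changes in the transcription of many genes. Genes of this early wave are known to encode transcription factors, ubiquitin ligases, calcium sensors, protein kinases and phosphatases, and secreted peptides.

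Of the 22746 probe sets on the array, 18680 were above an intensity floor of 16 on at least 1 array and were tested. Of these, 10554 were assigned to 1 gene (10429 genes, most of them named only by locus code), 7755 to no gene and 371 to several. The deposited columns had medians between 77.0 and 83.2. The largest axis of variation among the 6 wild-type arrays held 69.9% of their variance and separated chitooctaose from water. The second axis held 13.7%, and on it chitooctaose replicate 2 lay at 29.0, against -15.1 and -12.8 for the other chitooctaose arrays, and water replicate 1 lay at 10.2, against -5.32 and -6.06 for the other water arrays. Values without both of these arrays are given where they matter. The green tissue markers RCA (Rubisco activase) and LHCB4.1 (a chlorophyll-binding protein) were bright in both groups, with log2 changes of -0.04 and 0.05, and so was the root marker PYK10 (a beta-glucosidase), with a log2 change of 0.03. None of these 3 was called changed, and no seed storage or floral marker was matched by name to a tested probe set.

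After 30 min of chitooctaose, 1894 probe sets (10.1% of those tested) were called changed by limma at a Benjamini-Hochberg adjusted p under 0.05. Of them, 1132 (6.06%) were higher in chitooctaose and 762 (4.08%) were lower. At an unadjusted p under 0.05 there were 4433 (23.7%). The rises were larger than the falls. At least 2-fold rises numbered 631 (3.38%) and at least 2-fold falls 34 (0.182%), and 283 probe sets (1.51%) rose at least 4-fold while the largest fitted fall among called probe sets was 1.99 on the log2 scale. Without the 2 arrays that stood apart, 962 probe sets were higher and 466 lower. With only the wild-type arrays in the fit, 981 were higher and 358 lower. The median log2 change was 1.13 among the called rises and -0.48 among the called falls, against -0.07 over all tested probe sets, for which the 95% confidence interval of a change had a median half-width of 0.28.

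**Figure D1:**
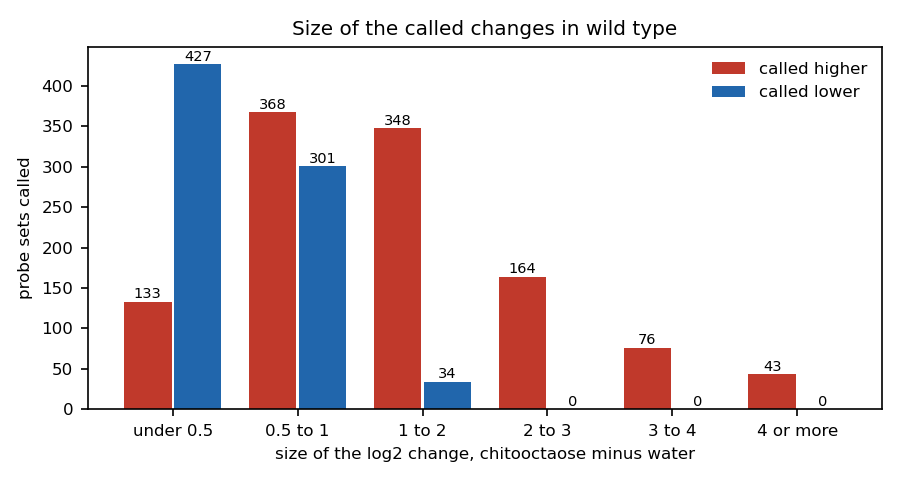
Number of probe sets called higher (red) and lower (blue) in chitooctaose by the size of the log2 change. Above a change of 1, 348, 164, 76 and 43 probe sets rose in successive bins, while 34 fell, all of them by less than 2.

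The called rises spread over a wide range and the falls clustered near 0, as the plot of sizes shows. Changes under 0.5 on the log2 scale made up 133 of the rises and 427 of the falls. The 3 chitooctaose arrays gave nearly the same response: over the 283 probe sets that rose at least 4-fold, their median log2 differences from the water mean were 2.85, 2.79 and 2.73. Over the 34 that fell at least 2-fold, these medians were -1.23, -1.28 and -1.29. Because these sets were chosen on the same arrays, the medians describe evenness between arrays and test nothing.

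**Figure D2:**
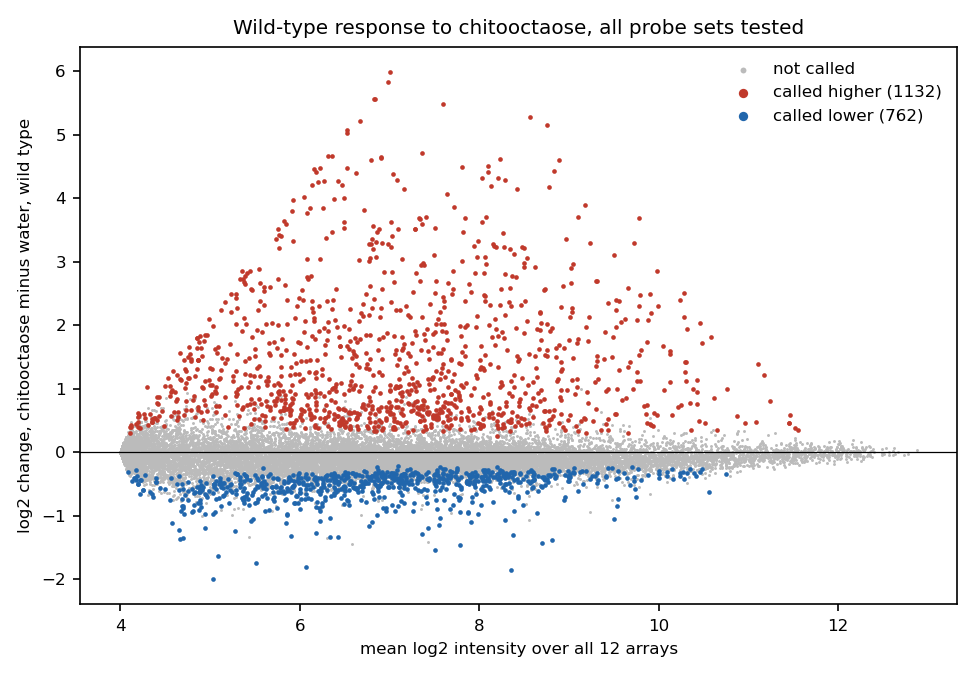
Log2 change, chitooctaose minus water in wild type, against mean log2 intensity over all 12 arrays, 1 point per tested probe set. Called rises (red, 1132) reach a change of 5.98, called falls (blue, 762) reach -1.99.

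Responses were found at every level of signal. Among probe sets with a mean intensity of 16 to 50, 3.72% were called higher and 3.08% lower. Among probe sets with a mean intensity of 100 to 200, 7.96% were called higher and 5.23% lower. Among those with a mean of at least 1000, 3.21% were called higher and 1.39% lower, and 20 rose at least 2-fold. Probe sets with no gene assigned responded at a like rate: 6.43% of these 7755 were called higher and 3.96% lower, against 5.77% and 4.19% of the 10554 with 1 gene. The families described further on therefore cover only the named portion of the response.

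The largest rises among genes above the floor on at least 1 array of each group were 12 genes with log2 changes of 4.32 to 5.83, and a highest adjusted p of 4.5e-07 (limma, 3 arrays against 3). AT1G07160, a type 2C protein phosphatase, had intensities of 955, 967 and 879 in chitooctaose, against 16.5, 16 and 16.8 in water, a log2 change of 5.83 ± 0.080 (SE). AT2G22880, a VQ-motif protein, a family whose members bind WRKY factors, had 1489, 1080 and 1286 in chitooctaose and 16.1, 44.7 and 32.8 in water, a log2 change of 5.47 ± 0.30. STZ, a zinc finger transcriptional repressor, had 2745, 2493 and 2458 in chitooctaose and 58.2, 101.8 and 62.5 in water, a log2 change of 5.16 ± 0.17. In each of these 3 genes the lowest chitooctaose array stood far above the highest water array. AT1G24140, a matrix metalloproteinase, had 584, 564 and 546 in chitooctaose and 16, 18.7 and 16 in water, a log2 change of 5.07 ± 0.081.

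The other 8 of these 12 genes included 3 precursors of secreted signalling peptides. AT4G28460, of the PIP family, rose by 4.65 ± 0.11, and the genes of IDA-like peptides AT5G05300 and AT3G10930 rose by 4.59 ± 0.12 and 4.39 ± 0.19. AT1G66090 and AT1G72920, both with the TIR domain of plant immune receptors, rose by 4.63 ± 0.19 and 4.47 ± 0.22. AT2G32030, an acetyltransferase of the GNAT family, rose by 4.41 ± 0.16, with the lowest chitooctaose value (884, against 1483 and 1348) on replicate 2, one of the arrays that stood apart. AR781 and AT2G25735 rose by 4.61 ± 0.28 and 4.32 ± 0.14. Several of these genes lay close to the floor in water, so the size of their change depends on how dim values are treated: when 32 was added to every value and no floor was set, the 12 log2 changes ran from 3.17 to 4.63.

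A further 70 called probe sets, 41 of them with 1 gene, were at the floor on all 3 water arrays and above it in chitooctaose, so their rise has only a lower bound. AT3G02840, an ARM-repeat protein related to U-box ubiquitin ligases, had intensities of 1200, 971 and 883 in chitooctaose and was at the floor of 16 on each water array, at least 63.1-fold higher. AT3G01830, an EF-hand calcium sensor, had 497, 381 and 348 in chitooctaose and was at that floor in water, at least 25.3-fold higher. The peptide precursors AT2G23270 and AT4G37290, also of the PIP family, were at least 22-fold and 18.4-fold higher. All 4 were far above the floor on every chitooctaose array.

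Among probe sets with 1 gene, the next bounds were those of CML37, a calmodulin-like protein, at least 15.7-fold higher, and AT5G37490, a U-box ubiquitin ligase, at least 12.4-fold higher. AT3G12910, a NAC transcription factor, was at least 11.5-fold higher, and AT3G55840, which resembles a nematode resistance gene of beet, at least 10.6-fold. AT1G43000, with a PLATZ zinc-binding domain, and AT4G23610, of the NHL family, were at least 7.19-fold and 7.18-fold higher. Of the 70 probe sets, 53 rose at least 2-fold by this bound and 16 at least 10-fold. In the other direction, 11 called probe sets were at the floor on all 3 chitooctaose arrays, 2 of them with a fall of at least 2-fold.

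**Figure D3:**
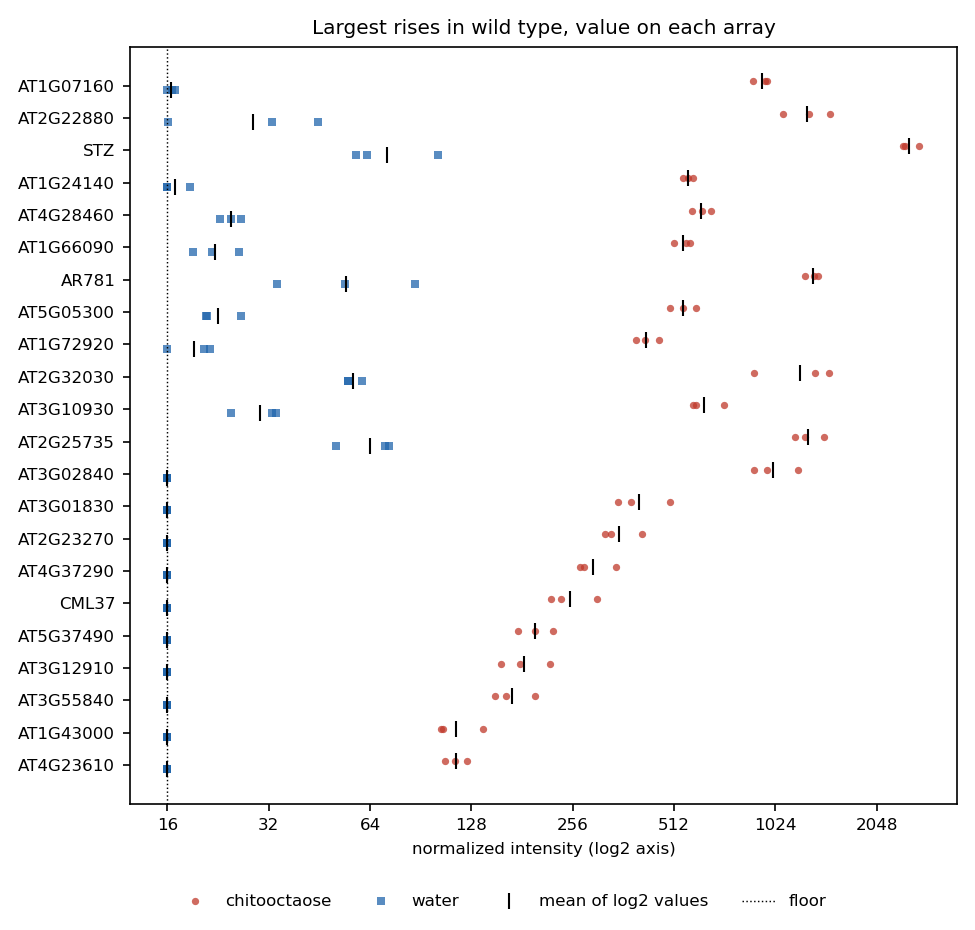
Normalized intensity (log2 axis) on each wild-type array for the 12 largest rises and the 10 largest lower bounds among probe sets with 1 gene; red circles are chitooctaose arrays, blue squares water arrays, bars the mean of the log2 values and the dotted line the floor of 16. Genes were chosen for non-overlapping groups, so in all 22 the 3 chitooctaose arrays lie to the right of the 3 water arrays. The lowest chitooctaose mean is 115.

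Genes already strongly expressed in water also rose. The 5 brightest in water among those that rose at least 2-fold were named. SRC2, a protein with a C2 lipid-binding domain, had 2242, 1797 and 2181 in chitooctaose and 905, 906 and 1002 in water, a log2 change of 1.14 ± 0.10. TET8, a tetraspanin of exosome-like vesicles, had 2906, 2592 and 2764 in chitooctaose and 545, 724 and 765 in water, a log2 change of 2.04 ± 0.12. The other 3 were AT1G55450, a methyltransferase (1.73 ± 0.10), AT2G46600, an EF-hand protein (1.42 ± 0.16), and AT5G42050, a protein with a DCD domain linked to cell death (1.26 ± 0.093). For all 5, the 2 groups did not overlap.

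Falls were smaller. The 12 largest among genes with non-overlapping groups, leaving out genes at the floor on all arrays of a group, ran from -1.45 to -1.09, and 16.9% of all tested probe sets had every chitooctaose array below every water array, against 9.12% with every one above. AT1G69760 had intensities of 114, 169 and 131 in chitooctaose, against 431, 401 and 299.6 in water, a log2 change of -1.45 ± 0.19 (adjusted p = 0.00032, limma). AT5G61590, the AP2/ERF factor DEWAX that represses wax synthesis, had 258, 263 and 265 in chitooctaose and 651, 719 and 749 in water, a log2 change of -1.43 ± 0.13. Its 3 chitooctaose arrays had nearly the same value.

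AT2G36090, an F-box protein, had 16, 19.0 and 17.3 in chitooctaose and 50.4, 46.3 and 36.8 in water, a log2 change of -1.34 ± 0.14. AT5G03230 had 89.6, 117 and 93.5 in chitooctaose and 156, 292 and 309 in water, a log2 change of -1.28 ± 0.23, with water replicate 1, an array that stood apart, nearest to the treated values. Without both arrays that stood apart its change was -1.71. AT1G49200, a RING-type ubiquitin ligase, fell by 1.26 ± 0.27 on the log2 scale, and this call was lost without water replicate 2 (adjusted p = 0.052, limma). AT5G61570, a protein kinase encoded close to DEWAX by locus number, had 22.1, 18.4 and 17.6 in chitooctaose and 45.2, 45.7 and 41.7 in water, a log2 change of -1.20 ± 0.17.

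The other 6 of the 12 were AT2G21560 (-1.34), AT3G02930 (-1.22), AT1G78170 (-1.16), AT3G25870 (-1.11), AT1G26920 (-1.09) and AT2G07140 (-1.09, by a probe set whose name marks it as sharing probes with other sequences). Dim falls shrank when 32 was added to every value and no floor was set: AT2G36090 then changed by -0.67, AT3G02930 by -0.56 and AT5G61570 by -0.57. For AT5G61590 and AT1G69760, the changes were -1.33 and -1.27 with that offset.

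**Figure D4:**
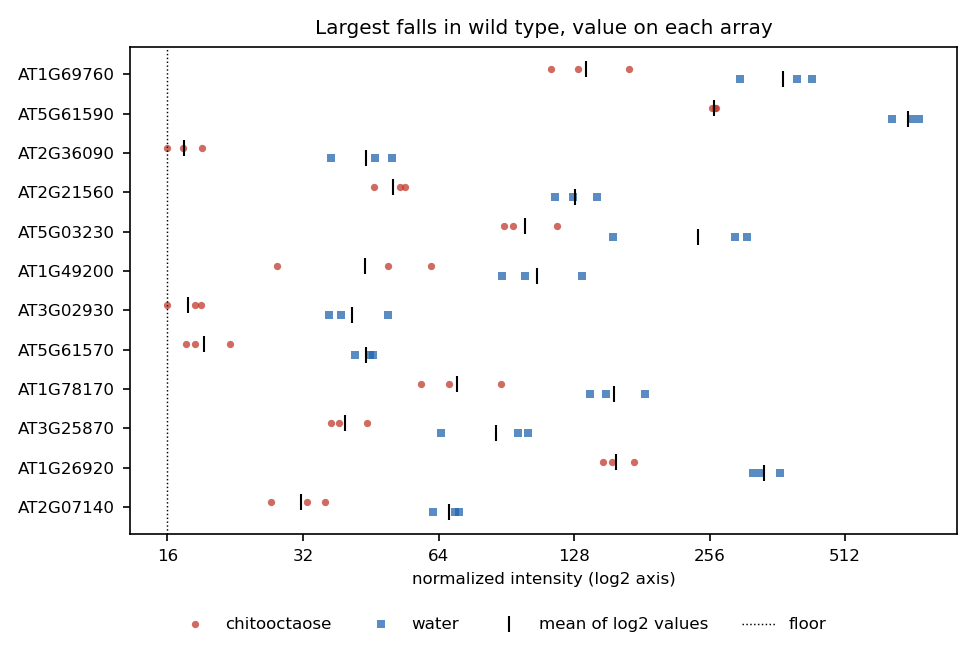
Normalized intensity (log2 axis) on each wild-type array for the 12 largest falls among genes not at the floor on all arrays of a group, drawn as for the rises, with red circles for chitooctaose, blue squares for water and the floor of 16 dotted. Genes were chosen for non-overlapping groups, so in all 12 the chitooctaose arrays lie to the left of the water arrays. Several genes approach the floor in chitooctaose.

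Some of the strongest responses came from probe sets with no gene in the annotation. Over all of these, the largest log2 change was 5.56. Those named here had non-overlapping groups and were not at the floor on all arrays of a group. Probe set 248448_at had intensities of 2581, 2041 and 2397 in chitooctaose and 41.9, 83.3 and 62.1 in water, a log2 change of 5.28 ± 0.21. Probe set 245250_at rose by 4.71 ± 0.11. The largest fitted falls were also unnamed. Probe set 252534_at had 16, 17.9 and 16 in chitooctaose and 61.1, 79.9 and 58.9 in water, a log2 change of -1.99 ± 0.16. It lay at the floor on 2 of the 3 chitooctaose arrays, and its change was -1.09 when 32 was added to every value. Probe set 247696_at fell by 1.86 ± 0.18, and by 1.69 with 32 added. In all, 283 probe sets with no gene rose at least 2-fold and 18 fell at least 2-fold.

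Gene families were then counted, as descriptions beside the 6.06% of all tested probe sets called higher and the 4.08% called lower. Membership was assigned by locus or by symbol and was drawn up with results of these data known. A family member at the floor on every array of the series, mutant arrays included, was left out of the count. A member silent in wild type was counted if any mutant array was above the floor. TET12, AT1G21550 and AT2G27940, for instance, were at 16 in both wild-type groups and were counted with a log2 change of 0. Many members had no probe set with a single gene, so the counts cover only the members tested.

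Signalling peptide precursors had 6 tested members of 21 listed, and all 6 rose, with a median log2 change of 4.42. AT2G23270 and AT4G37290 were at the floor on every water array and were tested only because they rose. The count of 6 was thus partly fixed in advance. Besides the 5 already given, RALFL33, the precursor of a peptide that alkalinizes the cell wall, had 1193, 982 and 1315 in chitooctaose and 672, 764 and 667 in water, a log2 change of 0.72 ± 0.11. It moved least of the 6.

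Calcium sensors of the EF-hand type had 21 tested members, of which 9 rose and none fell, with a median of 0.33. AT4G27280 had 3622, 3020 and 3173 in chitooctaose and 244, 282 and 233 in water, a log2 change of 3.69 ± 0.10. CML38 and CML42, both calmodulin-like, rose by 2.94 ± 0.19 and 1.78 ± 0.11. AT2G41090 (1778, 2031 and 1623 in chitooctaose, against 1917, 1884 and 1679 in water) was not called, with a log2 change of -0.02.

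Ubiquitin ligases mark proteins for degradation. U-box and ARM-repeat proteins had 19 tested members, of which 13 rose and none fell, with a median of 1.27. PUB22, PUB23 and PUB24 are known as a trio that dampens responses to microbial patterns. PUB23 had 1628, 1842 and 1563 in chitooctaose and 164, 181 and 145 in water, a log2 change of 3.36 ± 0.11. PUB24 rose by 3.03 ± 0.084 and PUB22 by 2.81 ± 0.20, while PUB25 rose by 1.27 ± 0.14. PUB26 was called at 0.74 ± 0.21 but lost its call in 11 settings, with adjusted p-values up to 0.25 (limma). AT1G23030, which was not called, had 347, 318 and 364 in chitooctaose and 360, 411 and 361 in water.

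RING-type ligases moved both ways: of 27 tested, 5 rose and 5 fell, with a median of -0.07. AT4G15975 had 277, 333 and 282 in chitooctaose and 23.4, 24.0 and 24.7 in water, a log2 change of 3.62 ± 0.11. AT1G20823 rose by 3.01 ± 0.23, and RING1, which is known to promote programmed cell death, rose by 1.16 ± 0.17. Apart from AT1G49200, the falls were AT5G17600 (-0.76), AT4G30400 (-0.69), ATL63 (-0.50) and AT4G28890 (-0.47), named here after their values were seen.

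Transcription factors moved in both directions. The 6 tested WRKY factors held 3 risers, all of them known in defence or senescence. WRKY53 had 1266, 966 and 1272 in chitooctaose and 48.9, 60.2 and 66.4 in water, a log2 change of 4.32 ± 0.14. WRKY22 rose by 3.53 ± 0.15 and WRKY6 by 2.37 ± 0.15, while WRKY47 (0.31), WRKY20 (0.08) and ZAP1 (-0.23) were not called. Of the 13 tested VQ-motif proteins, 7 rose and none fell. AT4G20000 and AT1G78410 followed AT2G22880, with log2 changes of 4.20 ± 0.20 and 3.85 ± 0.21.

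AP2/ERF factors had 27 tested members with 5 rises, 4 falls and a median of -0.06. AT1G22810 had 112, 129 and 97.7 in chitooctaose and lay at the floor on each water array, at least 7.03-fold higher, and AT1G33760 was at least 3.33-fold higher. AT2G22200 went the other way, with the floor on each chitooctaose array and 33.4, 32 and 39.0 in water, at least 2.17-fold lower. AT2G44940 fell by 1.05 ± 0.13. Of 18 tested bZIP factors, 2 rose and 1 fell. BZIP60 acts in the response to stress in the endoplasmic reticulum. It had 1960, 2106 and 1767 in chitooctaose and 657, 659 and 672 in water, a log2 change of 1.55 ± 0.080. Its partner in that response, BZIP28, was called at 0.51 ± 0.10 but not without both arrays that stood apart (adjusted p = 0.074, limma). The fall was that of bZIP58, by 0.61 ± 0.11.

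Immune receptor families rose in part. TIR-domain genes, 8 from a run on chromosome 1 and AT1G66090, had 5 rises among 9 tested. AT1G72940 had 1060, 802 and 969 in chitooctaose and 64.3, 79.8 and 71.7 in water, a log2 change of 3.71 ± 0.18. Within the run, AT1G72890 (-0.10) and AT1G72850 (0.20) were not called. Receptor kinases of the LRR-I class had 4 rises among 19 tested, of which AT1G51820 was the largest at 2.20 ± 0.29. The calls of AT1G51890 and AT1G51790 were lost in 6 and 10 settings, with adjusted p-values up to 0.098 and 0.22 (limma).

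BIK1, a cytoplasmic kinase that pattern receptors act through, had 447, 634 and 508 in chitooctaose and 268, 279 and 215 in water, a log2 change of 1.05 ± 0.14. SAG101, a lipase-like protein that works with EDS1 in immunity, rose by 1.00 ± 0.16. EFR, the receptor of a bacterial elongation factor, was at or near the floor on nearly every array and was not called. Few other members of the lists on chitin receptors, salicylate, jasmonate and mitogen-activated protein kinases had a probe set with 1 gene: 8 tested members in all.

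Several enzymes of defence metabolism rose. Berberine bridge enzyme-like oxidases had 5 rises among 17 tested. AT1G26380, a member linked to indole cyanogenic defence compounds, had 346, 421 and 288 in chitooctaose and 16, 16 and 23.2 in water, a log2 change of 4.26 ± 0.25, followed by AT1G30700 at 2.69 ± 0.17. OPCL1, which activates a jasmonate precursor for chain shortening, rose by 1.66 ± 0.16. CCR2, an enzyme of the lignin pathway, was at least 3.12-fold higher, and UGT71B6, which glucosylates abscisic acid, at least 2.81-fold. UDP-glycosyltransferases as a family had 3 rises and 1 fall among 37 tested, and cytochrome P450 enzymes 1 of each among 20. These counts set neither family apart from the 6.06% called higher and 4.08% called lower over all tested probe sets.

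At the cell surface, XTH18 and XTH19, which cut and rejoin xyloglucan in the wall, rose by 2.06 ± 0.081 and 0.99 ± 0.090, and the other 7 tested xyloglucan transferases were not called. ATPMEPCRB, a pectin methylesterase, had 1048, 886 and 946 in chitooctaose and 379, 348 and 303 in water, a log2 change of 1.48 ± 0.12. Tetraspanins had 3 rises among 11 tested: TET8 as given, TET9 at 2.66 ± 0.21, and TET7 at 0.56 ± 0.14, whose call was lost in 7 settings. The 5 exocyst subunits tested, which tether secretory vesicles, had none called, and neither had the 5 class III peroxidases nor the 2 chitinases, ChiC (0.33) and CHI (0.46). In families this small, no call does not differ from the 10.1% called over all tested probe sets.

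FLZ-domain proteins, zinc finger proteins that bind the SnRK1 kinase, had falls and no rise. So had bHLH factors (1 fall of 7 tested), glutathione transferases (1 of 11) and type-A cytokinin response regulators (1 of 2). Of the 11 FLZ-domain proteins tested, 3 fell, with a median of -0.23. AT1G74940 had 263, 267 and 260 in chitooctaose and 437, 442 and 537 in water, a log2 change of -0.84 ± 0.097. AT2G44670 fell by 0.71 ± 0.14, a call lost without both arrays that stood apart (adjusted p = 0.064, limma), and AT5G47060 fell by 0.44 ± 0.12, a call lost in 10 settings. The 5 chlorophyll-binding and photosystem proteins, the 8 tubulins and actins and the 4 histones tested had none called, nor had the 3 reference genes. With 10.1% of all tested probe sets called, the absence of calls among so few members sets none of these groups apart.

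**Figure D5:**
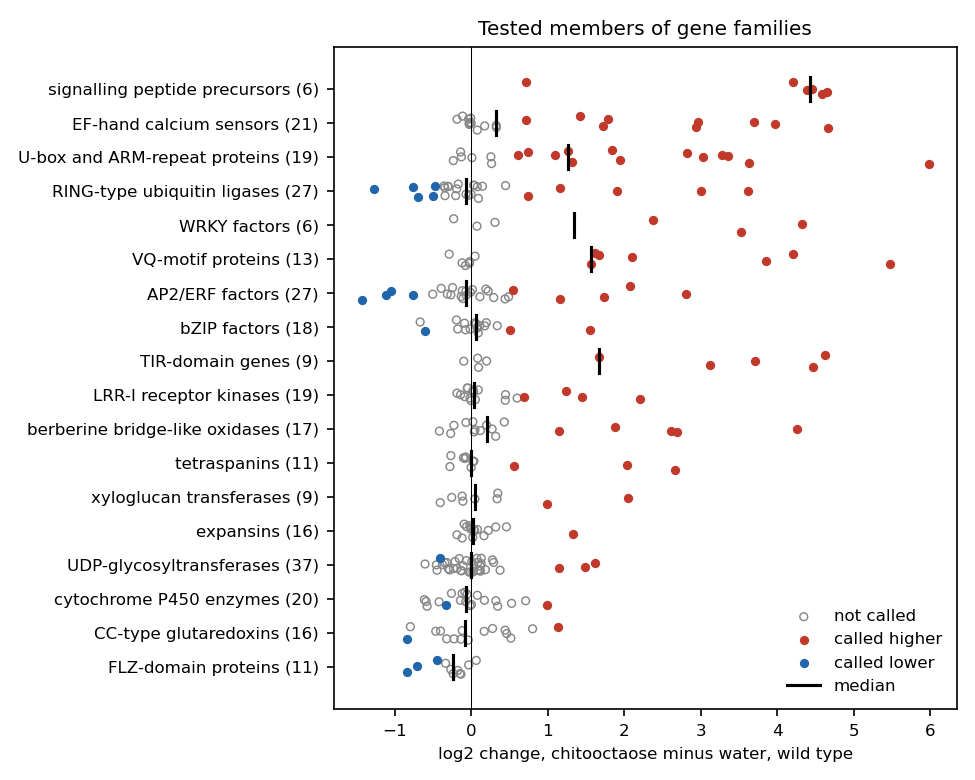
Log2 change, chitooctaose minus water in wild type, for every tested member of 18 families (number tested in brackets); filled red and blue points were called higher and lower, open points were not called, black bars are medians. Points for genes at the floor in water are lower bounds. All 6 peptide precursors and 13 of 19 U-box and ARM-repeat proteins are called higher, against 6.06% of all tested probe sets. Both counts include members that were tested only because they rose from the floor. FLZ-domain proteins have only falls among their calls.

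Genes called higher had rising neighbours more often than genes at large, a description with no test. Of 389 genes called higher whose neighbour in the annotation was measured, 67 (17.2%) had a directly adjacent gene that was also called higher, against 496 (7.49%) of all 6620 genes with a measured neighbour. For falls these were 26 of 281 (9.25%) and 354 of 6620 (5.35%). The rises formed 32 runs of adjacent genes, 3 of them with 3 members. AT1G42980, BZIP60 and AT1G43000 changed by 0.95, 1.55 and 2.85, and AT1G66080, AT1G66090 and AT1G66100 by 0.55, 4.63 and 1.21. AT3G15760, AT3G15770 and AT3G15780 changed by 1.85, 0.42 and 0.54. Pairs of like genes included the acetyltransferases AT2G32020 (3.29) and AT2G32030, XTH18 and XTH19, and AT5G52750 (3.23) and AT5G52760 (3.32). Whether probe sets of similar neighbours share signal was not tested. Of 700 tested probe sets whose names mark shared probes, 48 were called higher and 18 lower, against 1084 and 744 of the other 17980. Over all tested probe sets, 6.06% were called higher and 4.08% lower.

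The same probe sets were read in the erf5/6 double mutant on 6 other arrays of the same fit. Each probe set had the same standard error in both genotypes, so a call in wild type favoured a call in the mutant. All 283 probe sets that rose at least 4-fold in wild type were also called higher in the mutant, where 8.61% of probe sets were called in either direction, with median log2 changes of 2.84 in the mutant and 2.78 in wild type. Of the 34 that fell at least 2-fold in wild type, 33 were called lower in the mutant, and the exception, AT3G02930, changed there by -0.30. No probe set was called for a difference between the 2 responses by limma, with a lowest adjusted p of 0.97, and 859 (4.6%) had an unadjusted p under 0.05, which does not show that the responses were alike.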

How the data were processed

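Deposited probe set intensities of the 12 arrays, on a linear scale, were the starting point; the authors' background correction, summarization and scaling are not given in the sources used here. Per the labels' protocols, total RNA came from a Trizol extraction, and oligo(dT) priming started the labelling of antisense RNA with biotin. Intensities were quantile normalized, values under 16 were set to 16, log2 of the normalized values was taken, and 4066 probe sets at that floor on all 12 arrays were left out. Group means over all 12 arrays were fitted with limma 3.58.1 in R 4.3.3, with empirical Bayes moderation, and two-sided p-values were adjusted by Benjamini-Hochberg over 18680 probe sets; calls used 0.05. Where every array of a group lay at the floor, the level there is only a bound. The number of arrays limits the precision.

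Genes came from the platform annotation, updated through a RefSeq table (assembly TAIR10.1, used for names and gene order only); 13436 of 13513 probe sets with 1 gene matched. Named genes were the 12 largest rises and falls with non-overlapping groups, leaving out genes at the floor on all arrays of a group. The 10 largest bounds with non-overlapping groups among probe sets with 1 gene, the 5 brightest risers, and 2 rises and 2 falls without a gene were added. Those without a gene were the largest under the same rule as the 12 rises and falls. Each list gave up to 5 members with the lowest p and up to 2 uncalled members with the highest mean level. Adjacent genes were taken on both sides. The members and lists were chosen with earlier results of these data known. The labels give no batch. The procedure was tested on simulated data, and the alternatives tried are given in the closing section.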

Additional observations from a re-analysis of the deposited data

How the results depend on the processing

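The rises depended less on the processing than the falls. Leaving out 1 wild-type array at a time gave 968 to 1104 rises and 369 to 850 falls, and 612 to 635 rises and 31 to 49 falls of at least 2-fold. The falls numbered 369 without water replicate 1, 419 without water replicate 2 and 391 without chitooctaose replicate 3. With wild-type arrays only there were 358 falls, and with array weights 1269. Without both arrays that stood apart, an alternative chosen after seeing the data, there were 466 falls, 56 of them of at least 2-fold. With 32 added to every value and no floor, 11 falls were of at least 2-fold. Some dim rises also dropped below 2-fold with that offset, such as CCR2 (log2 change 0.91) and UGT71B6 (0.78). The 12 largest rises stayed at 3.17 or above. A test against a minimum change of 2-fold, which by construction calls fewer, left 394 rises and 3 falls. Across the 17 settings, 723 rises and 114 falls were called in all but that minimum-change test, against 1132 and 762 in the main fit. No named and called gene changed direction in any setting, and 95 of the 111 named and called probe sets were called in all but that test. Deviations of arrays with equal replicate numbers had correlations of -0.14, -0.15 and 0.11. The largest for any pair was 0.24, between chitooctaose replicate 2 and water replicate 1, the arrays that stood apart. With 3 arrays a group, such correlations cannot decide whether replicates were paired. With a replicate block there were 1102 rises and 721 falls. Promoter motifs were not run, because no promoter sequences were used here. Dim probe sets, 24.1% of values under the floor on each array, have changes that the floor limits.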
